A study of Rattus norvegicus with 12 samples.

Results

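Natural killer (NK) cells of the rat liver were described here in 6 libraries of whole cells. A cell was taken as an NK cell where the unique molecular identifiers (UMIs) of Nkg7, Gzma, Gzmm, Prf1, Xcl1, Klrb1a and Klrd1 summed to at least 5 and to at least 0.2% of its UMIs, with at most 1 UMI over Cd3e, Cd3d and Cd3g. Of 25659 cells kept in the 6 libraries, 463 met this rule. Total liver homogenate (TLH) gave 268 of them, from 2351, 10167, 5457 and 3844 kept cells of DA-1, DA-2, LEW-1 and LEW-2, and the immune-enriched preparations gave 195, from 1163 kept cells of a DA rat and 2677 of a LEW rat. The study set out to map the healthy liver of DA and LEW, inbred strains used as donor and recipient in transplantation, and all rats were untreated males. TLH was sequenced with 3′ version 2 chemistry from 2 rats per strain, and each immune-enriched library with version 3 chemistry from 1 rat, so preparation and chemistry cannot be told apart. The series description gave an age of 8 to 10 weeks, while file names gave 10 weeks for DA TLH, 13 for LEW TLH and 9 for the immune-enriched rats. The study's methods instead describe older, age-matched rats, so the sources do not settle whether age differed between the strains in TLH.

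NK cells are innate lymphocytes that kill infected or transformed cells. Perforin opens a path for granzymes, proteases stored in the same granules, and a balance of activating and inhibitory receptors decides whether the granules are released. In rat, many of these receptors are lectin-like proteins of the Klr and Ly49 families, and the NK cells of the hepatic sinusoids were long known as pit cells for their granules. They also secrete chemokines such as Ccl3, Ccl4, Ccl5 and Xcl1.

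The promoters of Gzma and Nkg7 are shown because both genes chose the cells and both differed between strains in TLH. They run from 250 bases before to 50 bases after the gene start in RefSeq GRCr8, a later build than the one the reads were aligned to. Capitals mark the letters TGTGGT of a RUNX motif or GGAAGT of an ETS motif on either strand.
Gzma promoter, chr2:46485647-46485946, minus strand: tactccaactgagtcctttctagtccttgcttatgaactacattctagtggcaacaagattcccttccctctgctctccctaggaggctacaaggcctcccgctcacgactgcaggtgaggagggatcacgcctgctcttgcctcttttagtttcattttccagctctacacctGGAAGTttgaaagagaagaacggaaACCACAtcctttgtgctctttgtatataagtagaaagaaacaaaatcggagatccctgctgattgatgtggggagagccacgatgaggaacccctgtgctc
Nkg7 promoter, chr1:102981247-102981546, plus strand: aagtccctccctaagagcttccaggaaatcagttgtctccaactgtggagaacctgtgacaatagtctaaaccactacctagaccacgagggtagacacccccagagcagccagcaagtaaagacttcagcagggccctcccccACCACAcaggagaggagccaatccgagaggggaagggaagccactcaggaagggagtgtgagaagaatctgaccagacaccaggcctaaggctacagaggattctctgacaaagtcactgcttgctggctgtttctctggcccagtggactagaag
The Gzma promoter held the RUNX letters starting 51 bases and the ETS letters starting 76 bases before the gene start, and that of Nkg7 held the RUNX letters starting 106 bases before it. Among the 7 genes of the rule and the 25 genes most raised in NK cells, 18 had a promoter in the table. Of these 18, 8 (44.4%) held TGTGGT, against 17.3% of 33469 rat promoters, and 8 (44.4%) held GGAAGT, against 22.6%. The T-box letters GGTGTGA, bound by the family of Tbx21, were found in 2 (Gzmk and Gzmm), against 3.83% of all. These matches describe letters only.

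The labels of the cells were checked on genes that the rule did not use. Ccl5, a chemokine that attracts T cells and monocytes, led every library. Its level in UMIs per 1000000 UMIs of the summed cells (CPM) was 8255, 9415, 15445 and 18480 in NK cells of TLH DA-1, DA-2, LEW-1 and LEW-2, and 43084 and 38428 in the immune-enriched DA and LEW cells. All other kept cells held between 15.1 and 47.7 CPM, so no library overlapped. After each cell was thinned to 1000 UMIs, between 96% and 100% of NK cells had a Ccl5 UMI, against 0.3% to 2% of the hepatocyte and other cells, taken as those with at least 5 Alb UMIs and none of the rule genes, Cd3 or Ptprc. Of the CD3 cells, those with at least 3 Cd3 UMIs, 0% had one in both DA TLH libraries (7 and 9 cells), 12.5% of 24 in LEW-1, 23.1% of 26 in LEW-2, and 5.98% of 117 and 6.38% of 94 in immune-enriched DA and LEW. Median depth before thinning was 2316 to 2549 UMIs in TLH NK cells and 2277 to 2489 in those hepatocyte and other cells, and 4066 and 4091.5 against 5486 and 5389 in the immune-enriched pair. No cell fell below the thinning depth, and at most 1000 cells per class and library were thinned.

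Of other genes that mark the lineage, Ncr1 and Tbx21 were counted in NK cells of all 6 libraries, and Eomes and Gzmb in 1 library each. Ncr1, which encodes the activating receptor NKp46, lay between 49.9 and 108 CPM in TLH NK cells and at 367 and 430 CPM in the immune-enriched NK cells, and CD3, Kupffer and hepatocyte cells held 0 to 4.10 CPM in those 2 libraries. Tbx21, the transcription factor T-bet, was counted at 47.6 to 89.5 CPM in TLH and at 298 and 323 CPM in the immune-enriched cells. Eomes, its relative in NK cells of other species, had 0 UMIs in 5 libraries and 3.47 CPM in immune-enriched LEW. Gzmb had 0 UMIs in 5 libraries and 1.75 CPM in immune-enriched DA, whereas the granzyme B-like gene Gzmbl2 was at 178 to 235 CPM in TLH and at 530 and 874 CPM in the immune-enriched cells. Granzyme, Klr and Ly49 genes have near-identical copies between which reads could be split, so their levels are uncertain.

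**Figure D1:**
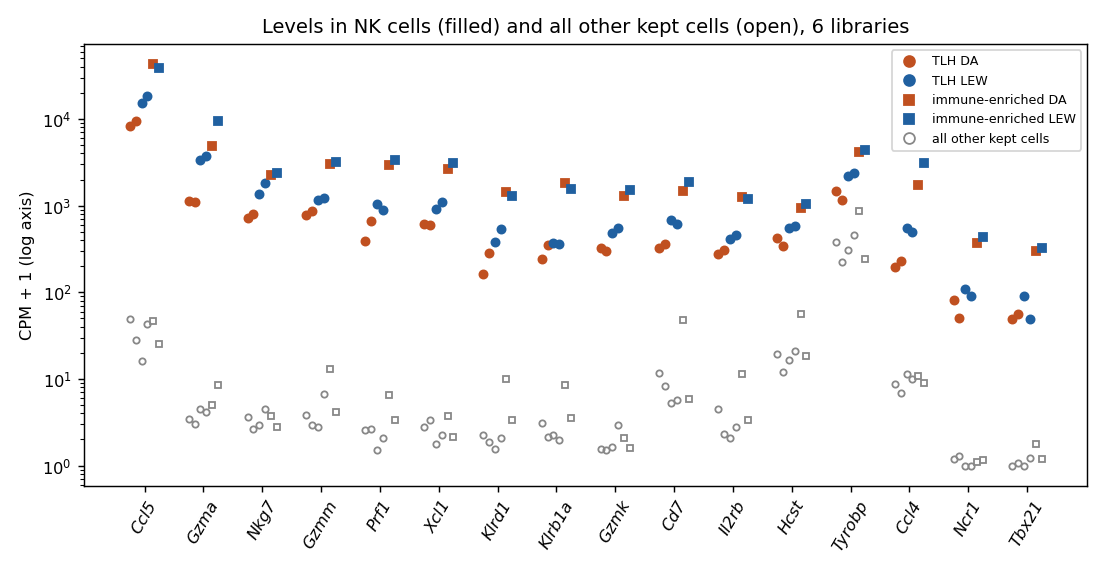
Level of 16 genes in NK cells (filled) and in all other kept cells (open), as CPM plus 1 on a log axis, with 1 point per library coloured by strain and shaped by preparation. For Ccl5 the NK cells sat between 8255 and 43084 CPM and the other cells between 15.1 and 47.7 CPM.

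The 25 genes outside the rule with the largest fold over other cells in their lowest library were headed by Ccl5. They were followed by Gzmk, a granzyme of memory-type killer lymphocytes, Hcst, the adaptor of NKG2D, Cd7, and Il2rb, the shared receptor chain for interleukins 2 and 15. With 50 CPM added to both sides, the lowest log2 ratio over the 6 libraries was 6.41 for Ccl5, 2.77 for Gzmk, 2.68 for Hcst, 2.63 for Cd7 and 2.60 for Il2rb. Gzmk ranged from 295 to 551 CPM in TLH NK cells and reached 1289 and 1516 CPM in the immune-enriched cells. These ratios describe cells chosen by correlated genes and carry no test.

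Of the cytotoxic granule and death ligand list, 23 of 24 symbols were in the files, all 23 had a UMI in NK cells, and 11 were above all other cells in each of the 6 libraries. Gzma, Gzmm, Prf1 and Nkg7 of this list are genes of the rule, which chose cells for high levels of them. The share of all genes above the other cells is not given, so the counts are a description. Prf1, perforin, was at 389, 662, 1052 and 891 CPM in TLH DA-1, DA-2, LEW-1 and LEW-2, and at 2980 and 3327 CPM in immune-enriched DA and LEW. Faslg, the death ligand, ranged from 27.2 to 74.8 CPM in TLH and stood at 309 and 371 CPM in the immune-enriched pair. The lysosomal protein genes Ctsc, Ctsd, Lamp1 and the chaperone gene Calr were not above the other cells in every library.

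The receptor list held 50 names, of which 41 were in the files and 36 had a UMI in NK cells. Among the lectin-like receptors, Klri1, whose product pairs with that of Klre1, was at 32.4 to 150 CPM in TLH and at 784 and 652 CPM in immune-enriched DA and LEW. Klre1 itself was at 81.1 to 134 CPM in TLH and at 603 and 451 CPM in the immune-enriched cells. Klrc1 was counted at 0 CPM in both DA TLH libraries, at 7.46 and 13.6 CPM in the LEW libraries and at 40.3 and 45.1 CPM in the immune-enriched pair. Klrk1, the NKG2D receptor, reached 270 and 246 CPM there.

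Adaptors and signalling genes were present throughout. Tyrobp, the DAP12 adaptor that relays signals of activating receptors, was at 1460, 1171, 2222 and 2354 CPM in the TLH rats and at 4111 and 4351 CPM in the immune-enriched cells. It was also at 244 to 868 CPM in the other cells of the immune-enriched libraries, and in the Kupffer cells among them it was at 3006 CPM in DA and 2371 CPM in LEW. Of 23 cytokine receptor and JAK-STAT genes, Il2rb had the highest level in immune-enriched NK cells, with 1242 and 1204 CPM, and Il2rg, the common gamma chain, had 321 and 316 CPM. In the homing list of 28 genes, Cd9 was at 81.7 to 142 CPM in TLH and at 810 and 656 CPM in the immune-enriched cells. Cxcr6, a liver-homing receptor, was at 68.4 and 24.3 CPM in the latter.

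Genes of T cells were read against the same cells. Cd8a, which rat NK cells carry as well as T cells, had a UMI in 20% to 50% of TLH NK cells and in 91.6% and 84.4% of immune-enriched DA and LEW NK cells, at unequal depths. Cd8b, the partner chain that marks killer T cells, had a UMI in 1 of the 463 cells. Between 0 and 2 NK cells per library had 1 Cd3 UMI, the most that the rule allowed. Cd3e, Cd3d and Cd3g are in the T cell list, so their low level was set by the rule. Of the 20 T cell genes, 8 to 13 were at 0 in each library, and their summed level was 0.0227% to 0.0395% of UMIs in TLH NK cells and 0.139% and 0.133% in the immune-enriched DA and LEW NK cells, mostly Cd8a.

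Cells near the thresholds differed by preparation and, within TLH, by strain. In the immune-enriched libraries all 131 DA members and 63 of 64 LEW members had 10 or more UMIs of the 7 genes. In DA TLH cells lay on both sides of the limit, with 10 cells at 5 to 6 UMIs in DA-1 (8 of them members, median 17.5 Ccl5 UMIs) and 6 cells at 3 to 4 UMIs just outside (median 16 Ccl5 UMIs). In DA-2, 13 cells at 5 to 6 UMIs had a median of 10 Ccl5 UMIs, and 16 cells just outside had a median of 5.5. LEW-1 and LEW-2 each had 1 cell at 3 to 4 UMIs, with 1 and 0 Ccl5 UMIs, and 86 and 55 of their cells had 10 or more UMIs, against 11 and 59 in DA-1 and DA-2. Of the DA cells just outside, 83.3% in DA-1 and 87.5% in DA-2 had a Ccl5 UMI.

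UMIs of hepatocyte genes were common in the TLH NK cells, and whether they were free RNA was not tested. The hepatocyte list made up 7.97%, 10.8%, 9.04% and 9.41% of the UMIs of NK cells in DA-1, DA-2, LEW-1 and LEW-2, against 10.2%, 13.6%, 12.3% and 12.3% in all other kept cells. In the immune-enriched NK cells it made up 0.173% in DA and 1.99% in LEW. Scaled on this list, the profile of the hepatocyte and other cells amounted to 70.0% to 77.0% of NK UMIs in TLH, and to 1.6% and 13.8% in the immune-enriched DA and LEW cells. Levels in TLH and in the immune-enriched libraries are therefore set side by side without a comparison.

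NK cells were a larger share of kept cells in LEW than in DA TLH, but this order depended on the limit on UMIs. The share was 1.06% (exact 95% interval 0.689% to 1.57%) in DA-1, 0.826% (0.660% to 1.02%) in DA-2, 1.83% (1.49% to 2.22%) in LEW-1 and 1.53% (1.17% to 1.98%) in LEW-2. Means were 0.945% ± 0.168 (SD, n = 2) and 1.68% ± 0.210 (SD, n = 2), with no overlap. With 2 rats against 2, no exact permutation test can give a p under 0.333, and none was run. With a limit of 1000 UMIs the shares were 0.315%, 0.237%, 0.194% and 0.229%, from 133, 120, 114 and 112 NK cells. This limit kept 200627 TLH barcodes, while the study's map held 23036 cells. DA-1 rose from 25 NK cells to 133, and the LEW mean of 0.212% no longer exceeded the DA mean of 0.276%. With the limits stated in the study's methods the means were 1.38% in DA and 1.10% in LEW, but these limits kept 33716 TLH cells. A limit of 2000 UMIs for both LEW rats, with the stated limits for DA, kept 23036 cells, the number in the study's map. The shares were then 1.63% and 1.14% in DA and 1.83% and 1.53% in LEW, so the LEW mean of 1.68% exceeded the DA mean of 1.38%, but the rats overlapped. At 3000 UMIs the rats overlapped, with 3 NK cells left in DA-1 (1.66%) and 8 in LEW-2 (1.52%).

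In the immune-enriched libraries the order was the opposite. NK cells made up 11.3% (9.50% to 13.2%) of the kept DA cells and 2.39% (1.85% to 3.04%) of the kept LEW cells. The LEW library also held 2117 hepatocyte and other cells of 2677, against 279 of 1163 in DA. Among cells of the 4 leukocyte classes counted here (NK, CD3, Kupffer and B cells), NK cells were 33.6% in DA and 16.5% in LEW. In TLH the same share was 9.47%, 12.4%, 23.6% and 14.8% in DA-1, DA-2, LEW-1 and LEW-2. Intervals cover counting error only, and yield by preparation was not tested.

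**Figure D2:**
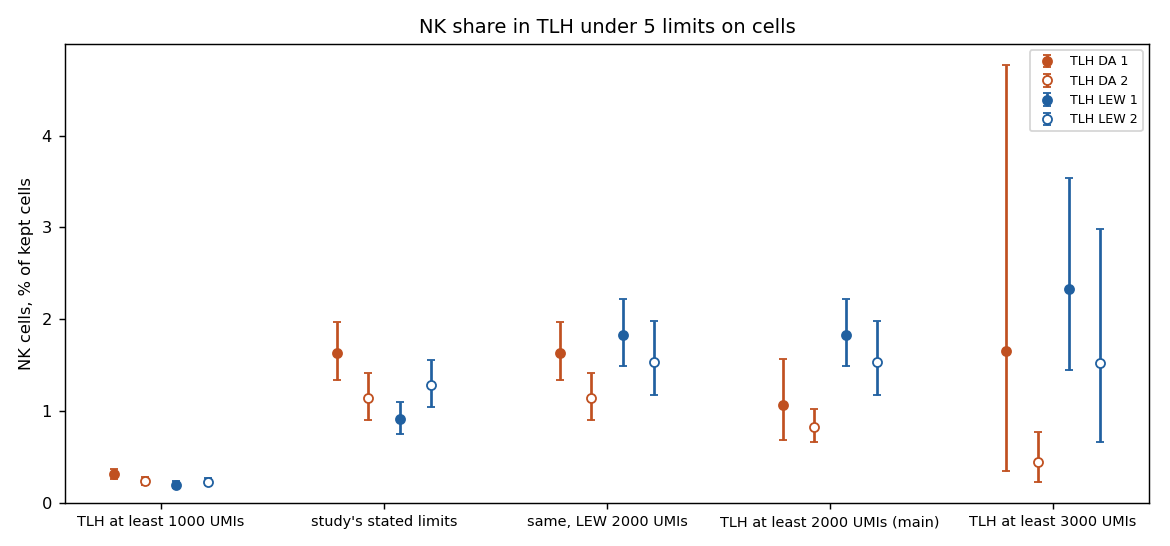
NK cells as a percentage of kept TLH cells (vertical axis) under 5 limits on cells, with exact 95% binomial intervals and 1 point per rat. At 2000 UMIs both LEW rats, at 1.83% and 1.53%, were above both DA rats, whereas at 1000 UMIs all 4 rats lay between 0.194% and 0.315%.

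Between strains, Gzma was the killer-cell gene with the clearest difference. Granzyme A is a tryptase of the lytic granule. In TLH NK cells it was at 1135 and 1107 CPM in DA-1 and DA-2 and at 3341 and 3722 CPM in LEW-1 and LEW-2, a log2 fold change of 1.59 (SE 0.17, edgeR quasi-likelihood adjusted p = 1.8e-06). Both LEW rats were above both DA rats. Gzma helped to choose the cells, but with membership set by the other 6 genes the log2 fold change was 1.65 (SE 0.16, edgeR adjusted p = 8.2e-06). In the immune-enriched libraries, with no replicate, it was at 4927 CPM in DA (exact Poisson interval 4746 to 5113, counting error only) and at 9555 CPM in LEW (9201 to 9919).

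Across all genes, 77 of 2212 tested in TLH NK cells passed an adjusted p of 0.05 (3.48%), 24 higher in LEW (1.08%) and 53 lower (2.4%), and none of the 77 had overlapping rats. Without regard to the test, the rats did not overlap for 990 of the 2212 genes (44.8%). The count rested on single rats, since it was 155 without DA-1, 35 without LEW-1 and 39 without LEW-2. DESeq2 called 19 genes, all among the 77. After subtraction of the hepatocyte profile edgeR called 0 of 837 genes, with 43 at an unadjusted p under 0.05. Gzma then had a log2 fold change of 1.41 (SE 0.18) and an adjusted p of 0.23. Because 25 cells stood for DA-1, its levels carry the largest counting error.

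The called genes were also compared with the other cells of the same libraries. In the other kept cells 180 of 10828 genes were called (1.66%), 94 higher in LEW (0.868%) and 86 lower (0.794%), and they included 10 of the 24 and 10 of the 53 in the same direction. Of the 24 genes higher in LEW, 10 were more than 2 times as high in NK cells as in the other cells of all 4 TLH rats, a limit set after the values were seen that 137 of all 2212 genes tested met (6.19%). These were Ccl5, Gzma, Nkg7, Ccl4, Ccl3, Tyrobp, Crip1, Art2b, AC142181.1 and AABR07027872.1. Gzma and Nkg7 are genes of the rule, which chose cells for high levels of them. DESeq2 called 2 of the 10, Ccl5 and Gzma. Crip1, a zinc-binding LIM protein (log2 0.74, edgeR adjusted p = 0.034), did not pass without DA-2 (0.34), LEW-1 (0.21) or LEW-2 (0.31), nor with the replicate block (0.078). AABR07027872.1 (log2 1.56, edgeR adjusted p = 0.029) did not pass without DA-2 (0.051) or LEW-2 (0.27). Over the 20 alternatives, leaving out each rat included, the call of Gzma ended in 1, Ccl3 in 3, Ccl5 and Nkg7 in 4, Ccl4 in 6, Tyrobp, AC142181.1 and AABR07027872.1 in 8, Crip1 in 9 and Art2b in 10. Of the 53 genes lower in LEW, 0 met that limit and 32 were below the other cells in all 4 rats, as were 394 of all genes tested (17.8%). One of the 32 was Cyp4a2, a fatty acid hydroxylase, at 438 and 803 CPM in NK cells of DA-1 and DA-2 and at 33.6 and 6.80 CPM in LEW-1 and LEW-2. In the other cells Cyp4a2 was at 756 and 1144 CPM in DA and at 93.9 and 46.8 CPM in LEW.

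**Figure D3:**
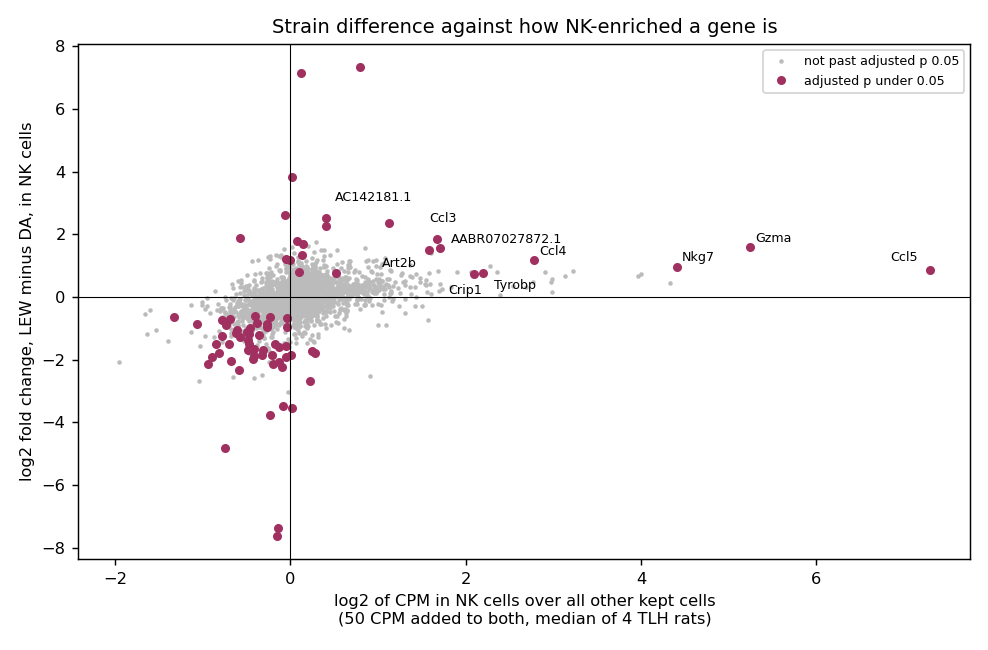
Log2 fold change of LEW over DA in TLH NK cells (vertical axis) against the log2 ratio of NK cells to all other kept cells (horizontal axis) for the 2212 genes tested. The 10 named genes on the right were all higher in LEW, and the called genes lower in LEW lay around or left of 0. Of the 32 rule and leading genes, called or not, 31 lay above 0 on the vertical axis. The 7 rule genes made up a median of 0.326% and 0.463% of a cell's UMIs in DA-1 and DA-2. In LEW-1 and LEW-2 they made up 0.807% and 0.990%, and the part of this in the pattern was not tested.

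The chemokine list had 4 genes tested, of which 3 were higher in LEW and 0 lower, beside 1.08% of all genes higher. Its median log2 fold change was 1.03, against -0.01 over all genes tested and 0.61 over the 32 rule and leading genes. The tested genes included Xcl1, a gene of the rule, so the count and the median are a description. Ccl3 was at 64.9 and 54.4 CPM in DA and at 213 and 231 CPM in LEW (log2 1.87, SE 0.38, edgeR adjusted p = 0.0043). Ccl4 was at 195 and 231 CPM in DA and at 548 and 497 CPM in LEW (log2 1.18, SE 0.27, edgeR adjusted p = 0.013). Ccl5 rose by 0.88 on the log2 scale (SE 0.17, edgeR adjusted p = 0.0025), but did not pass at the limit of 1000 UMIs (log2 0.70, adjusted p = 0.12), at the limits stated by the study (log2 0.66, adjusted p = 0.094) or with the 23036 cells above (log2 0.63, adjusted p = 0.080). DESeq2 did not call Ccl3 or Ccl4. Ccl3 did not pass without DA-2 (adjusted p = 0.18), nor Ccl4 without LEW-1 (0.20) or LEW-2 (0.090), with at least 10 UMIs and 0.4% of UMIs of the 7 genes (0.073) or without a filter on low counts (0.056).

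Xcl1, the lymphotactin that draws cross-presenting dendritic cells, was at 616 and 603 CPM in DA and at 917 and 1102 CPM in LEW (log2 0.66). Xcl1, Prf1 and Klrd1 are genes of the rule, and no membership without them was fitted, so their values are a description. Of the granule list, 13 genes were tested and 2, Gzma and Nkg7, were higher in LEW, beside 1.08% of all genes. Both are genes of the rule, as are Gzmm and Prf1 of the same list, and none of the other 9 granule genes passed. The list had a median of 0.59. Nkg7, a granule membrane protein needed for degranulation, was at 714 and 808 CPM in DA and at 1354 and 1830 CPM in LEW (log2 0.97, SE 0.20, edgeR adjusted p = 0.0043), and did not pass at the limit of 1000 UMIs, without LEW-2 (adjusted p = 0.18) or with DESeq2 (0.11). Nkg7 helped to choose the cells, and with membership by the other 6 genes its log2 fold change was 1.13 (SE 0.22, edgeR adjusted p = 0.0058). Prf1 had a log2 fold change of 0.73, and of 1.29 without DA-2. Of 10 receptors tested, none passed in either direction, and their median was 0.76. Among them Klrd1 had a log2 fold change of 0.79, and of 1.42 without DA-2. Cd7 (log2 0.83, edgeR adjusted p = 0.061) passed without DA-1 (0.041), with scaling by library size alone (0.048) and with membership without Gzma (0.042).

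The remaining lists gave few calls. Of 9 adaptors and kinases, Tyrobp was higher in LEW (log2 0.76, SE 0.18, edgeR adjusted p = 0.012), beside 1.08% of all genes tested. Tyrobp did not pass without DA-2 (adjusted p = 0.13), LEW-1 (0.088) or LEW-2 (0.14), at the stated limits (0.056), at 1000 UMIs (0.077) or without a filter on low counts (0.19). None of 4 cytokine receptor genes, 5 transcription factors or 4 homing genes passed, with medians of 0.38, 0.39 and 0.12. Art2b, an ADP-ribosyltransferase of the rat lymphocyte surface, was at 64.9 and 59.0 CPM in DA and at 153 and 218 CPM in LEW (log2 1.49, SE 0.41, edgeR adjusted p = 0.04), and did not pass without DA-2 (0.38), LEW-1 (0.052) or LEW-2 (0.37).

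Lists of other cell types and of cell state were read in the same fit. Of 6 Kupffer and myeloid genes tested none passed (median -1.29), and their summed level in NK cells was 0.302% in DA-1 against 0.0403% to 0.0767% in the other TLH rats. In DA-1, 3 of 25 members had at least 3 UMIs of Kupffer, B or plasmacytoid dendritic cell markers. Of 15 hepatocyte genes, Fabp1 was higher in LEW, of 4 endothelial genes Sparc was lower, and of 9 immediate-early genes Dusp1 was lower. Of 9 interferon-response genes Ifi27 was lower. These calls stand beside 1.08% of all genes tested called higher in LEW and 2.4% called lower. Leaving out DA-2 or LEW-1 ended the calls of Sparc (adjusted p = 0.064 and 0.54), Dusp1 (0.34 and 0.17) and Ifi27 (0.11 and 0.088), and leaving out LEW-2 ended that of Ifi27 (0.75). Without doublet-like members, those with UMIs of other cell types or with the most UMIs, Sparc (adjusted p = 0.15), Cdkn1a (0.096), Angptl6 (0.10) and Tbrg1 (0.056) did not pass. Sparc also did not pass with membership without Gzma (log2 -0.72, adjusted p = 0.62). Of the alternatives that gave a value, the call ended in 11 of 19 for Sparc, 12 of 20 for Ifi27, 5 of 19 for Dusp1 and 2 of 19 for Fabp1. Neither of the 2 proliferation genes tested passed. The T cell list had 1 gene tested, Cd8a, which did not pass, while the B cell, erythroid and plasmacytoid dendritic cell lists had 0. Their part in the strain differences was not tested.

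Of 8 class I MHC genes tested, RT1-A1 and RT1-CE5 were higher in LEW and RT1-A2 and RT1-CE10 lower. Over all genes tested, 1.08% were called higher and 2.4% lower. The strains carry different class I haplotypes and the genes are near-identical copies, so counts of single members are uncertain. RT1-A1 was at 81.1 and 127 CPM in DA and at 552 and 612 CPM in LEW NK cells, and RT1-A2 was at 195 and 259 CPM against 37.3 and 40.8 CPM. RT1-CE10 did not pass without DA-2 (adjusted p = 0.51), LEW-1 (0.052) or LEW-2 (0.059). The other cells of the same rats moved by 1.96 and -3.05 on the log2 scale.

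Genes counted in NK cells of a single strain led the list by size. AABR07030791.1 had 0 UMIs in DA and 49 in LEW, and was at least 11.1-fold higher in LEW against a floor of 3 counts over the DA group. LOC100360791 had 0 and 42 UMIs, and was at least 9.51-fold higher, while the other cells held 0.890 and 0.291 CPM in DA and 67.7 and 93.6 CPM in LEW. Ubd, a ubiquitin-like modifier, had 39 and 0 UMIs and was at least 19.1-fold lower in LEW, and Cyp2c12 had 33 and 0 and was at least 16.2-fold lower. Ubd was also at 221 and 186 CPM in the other DA cells and at 0.213 and 1.27 CPM in the other LEW cells.

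Other genes named by size went both ways. In TLH the hepatocyte profile, scaled on its list, amounted to 70.0% to 77.0% of NK UMIs. Of the 53 genes called lower in LEW, 32 were below the other cells in all 4 rats. Genes named by size, Cyp2c12 and Ubd included, are therefore not shown to be expressed by NK cells, and their source was not tested. Higher in LEW were Slfn4 (log2 3.83), RGD1307603 (2.63), Tbrg1 (2.52), AC142181.1 (2.37) and Ugt2b (1.89). Lower in LEW were Tcim (-3.76), Cdkn1a (-3.53), Angptl6 (-3.48), Sdc4 (-2.32), Colec11 (-2.24) and Wfdc21 (-2.14). Slfn4, a Schlafen gene of leukocytes, was at 48.7 and 13.6 CPM in DA and at 377 and 279 CPM in LEW NK cells, and at 70.2 and 503 CPM in immune-enriched DA and LEW. In the other TLH cells it was at 74.7 and 66.5 CPM in DA and at 195 and 203 CPM in LEW. With each rat left out in turn, Slfn4, RGD1307603, Ugt2b, RT1-A1, RT1-A2, Cyp4a2 and Sdc4 kept their calls. Ubd and Cyp2c12 kept theirs without DA-1, LEW-1 or LEW-2, and without DA-2 they were too low to be tested, as were Tcim, Cdkn1a and Angptl6. Without LEW-1, AABR07030791.1, LOC100360791, Tbrg1, Tcim, Cdkn1a, Angptl6, Colec11 and Wfdc21 lost theirs (adjusted p from 0.056 for LOC100360791 to 0.59 for Tbrg1). Without DA-2, LOC100360791, Tbrg1, AC142181.1, RT1-CE5 and Wfdc21 did, and without LEW-2, Tbrg1, AC142181.1, RT1-CE5 and Wfdc21 did.

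The genes chosen for their level in these cells are given as a description only. All 32 genes of the rule and of the leading 25 were tested, and 31 had a positive log2 fold change, with a median of 0.61, while 6 were called, beside 3.48% of all genes tested. In the immune-enriched pair the median over the same 32 was 0.10, and 23 were higher in LEW. The 7 rule genes made up a median of 0.326% and 0.463% of a cell's UMIs in DA-1 and DA-2, 0.807% and 0.990% in LEW-1 and LEW-2, and 1.89% and 2.22% in immune-enriched DA and LEW. A ratio to the UMIs of Ccl5 was therefore added after the values were seen. Other RNA of a barcode does not enter this ratio, but it does enter the limits that chose the cells.

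Relative to Ccl5, Gzma kept its order in all 3 rats of each strain. Ccl5 itself was higher in LEW in TLH and lower in LEW in the immune-enriched pair. There were 13.8 and 11.8 Gzma UMIs per 100 Ccl5 UMIs in TLH DA-1 and DA-2 and 11.4 in immune-enriched DA, against 21.6 and 20.1 in TLH LEW-1 and LEW-2 and 24.9 in immune-enriched LEW. Means were 12.3 ± 1.25 (SD, n = 3) in DA and 22.2 ± 2.42 (SD, n = 3) in LEW, and the strains did not overlap. Each mean joins 2 TLH libraries and 1 immune-enriched library, so the SD mixes rats with preparations and chemistries. Of the 31 other rule and leading genes, 2 did not overlap in this ratio, Gzma higher and Sept1 lower in LEW, and Sept1 overlapped under 6 of the 7 other choices of cells. This stands beside 36 of 2211 tested genes (1.63%). Ccl3 also lay apart, at 0.786, 0.578 and 0.839 in DA and 1.38, 1.25 and 1.42 in LEW, but with at least 10 UMIs and 0.4% of UMIs of the 7 genes it overlapped, at 1.30 in DA-1 and 1.25 in LEW-2. Ccl4 overlapped between strains, at 2.36, 2.46 and 4.06 in DA and 3.55, 2.69 and 8.05 in LEW, but was higher in LEW within each preparation.

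The order of the Gzma ratio held under each choice of cells tried. At the limit of 1000 UMIs it was 10.5, 12.5 and 11.4 in DA and 21.6, 20.0 and 24.9 in LEW, and with membership by the other 6 genes it was 14.6, 10.2 and 11.4 against 21.5, 20.1 and 24.9. With at least 10 UMIs and 0.4% of UMIs it was 20.0, 12.2 and 11.4 against 22.5, 21.1 and 24.9, still without overlap. As a share of the 7 rule genes, Gzma made up 28.1%, 23.6% and 25.8% in DA and 39.0%, 38.5% and 39.1% in LEW. The same 7 genes chose the cells, so this share is a description. With membership by the other 6 genes it was 25.4%, 20.9% and 25.8% in DA and 38.5%, 38.6% and 39.1% in LEW. The 7 shares have a fixed sum, so a larger share of Gzma goes with smaller shares of the rest. Gzmm overlapped between strains, with 9.43, 9.30 and 7.03 UMIs per 100 Ccl5 UMIs in DA and 7.46, 6.63 and 8.33 in LEW. Perforin showed no such order, with 4.72, 7.04 and 6.92 UMIs per 100 Ccl5 UMIs in DA and 6.81, 4.82 and 8.66 in LEW.

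**Figure D4:**
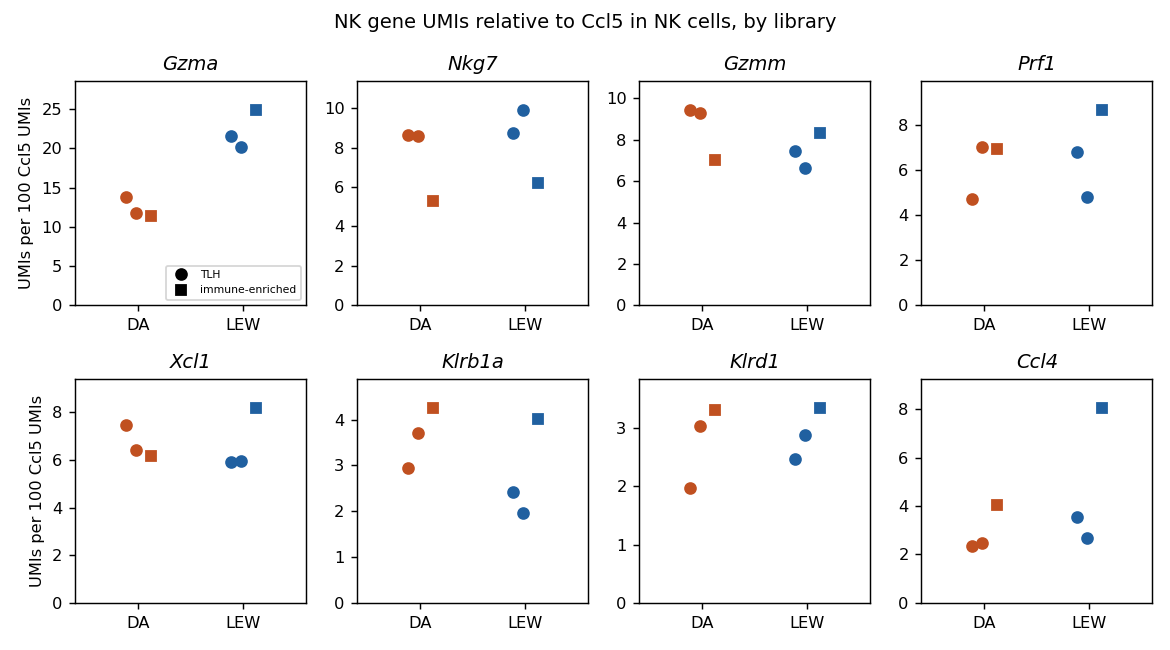
UMIs of 8 genes per 100 Ccl5 UMIs in the NK cells of each library (vertical axes from 0), by strain, with circles for TLH and squares for immune-enriched. Gzma lay between 11.4 and 13.8 in the 3 DA libraries and between 20.1 and 24.9 in the 3 LEW libraries, whereas Prf1 overlapped.

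In the immune-enriched pair, single genes differed beyond counting error, with 1 rat per strain and no test. Ccl4 was at 1749 CPM in DA (1642 to 1861) and at 3095 CPM in LEW (2895 to 3305). Ccl1, a chemokine of activated lymphocytes, was at 591 CPM in DA (530 to 658) and 121 CPM in LEW (84.6 to 169). Itgal, the alpha chain of the LFA-1 integrin, was at 36.8 CPM in DA (22.8 to 56.3) and 285 CPM in LEW (226 to 353). In TLH, Itgal had 0 UMIs in NK cells of both DA rats and was at 70.8 and 34.0 CPM in LEW-1 and LEW-2, but it was too low to enter the test. The other TLH cells held 0 and 0.146 CPM of Itgal in DA and 18.9 and 21.6 CPM in LEW. Of the 20 genes called higher in LEW TLH with at least 4 UMIs in both immune-enriched libraries, 19 were higher in LEW there. The exception was Ccl5, which was lower in LEW there. Of 36 called lower, 11 were lower. The share of all tested genes higher or lower in this pair is not given, so these counts are a description and do not show agreement between preparations. The hepatocyte profile amounted to 1.6% of NK UMIs in immune-enriched DA and to 13.8% in immune-enriched LEW.

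A minority of NK cells in each library had transcripts of cycling cells by the limit used, at unequal depths. The proliferation list made up 0.0283% to 0.125% of NK UMIs in TLH, against 0.0052% to 0.0098% in the other cells. In immune-enriched DA and LEW it made up 0.183% and 0.312%, against 0.019% and 0.012%. Cells with at least 2 UMIs over Mki67, Top2a, Ube2c, Cenpf, Birc5 and Cdk1 numbered 3 of 25, 3 of 84, 1 of 100 and 2 of 59 in TLH DA-1, DA-2, LEW-1 and LEW-2. In the immune-enriched libraries they were 9 of 131 in DA (6.87%, exact 95% interval 3.19% to 12.6%). In LEW they were 7 of 64 (10.9%, 4.51% to 21.2%). These intervals cover counting error only, with 1 rat per strain, so a strain difference in this share was not tested.

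Gzmk was counted in some of the NK cells of each library. At 1000 UMIs per cell, 20.0% and 20.2% of NK cells in DA-1 and DA-2, 35.0% and 35.6% in LEW-1 and LEW-2, and 47.3% and 48.4% in immune-enriched DA and LEW had a Gzmk UMI, whereas at most 0.1% of hepatocyte and other cells did in any library. Of the CD3 cells, 0% did in 4 libraries, 15.4% of 26 in LEW-2 and 4.26% of 94 in immune-enriched LEW. Without thinning the shares were 36.0%, 35.7%, 46.0%, 49.2%, 69.5% and 78.1%. These shares depend on how much other RNA a barcode held. Relative to Ccl5 the strains overlapped. There were 3.93, 3.13 and 2.99 Gzmk UMIs per 100 Ccl5 UMIs in TLH DA-1, DA-2 and immune-enriched DA. The values were 3.09, 2.98 and 3.95 in TLH LEW-1, LEW-2 and immune-enriched LEW. Comparison within a library was possible in 4 libraries with at least 20 cells on each side, which left out both DA TLH libraries. Xcl1, which the rule used, is given as a description: it was lower in cells with Gzmk in all 4, at 857 against 1246 CPM in LEW-1, 333 against 1474 in LEW-2, 1629 against 3899 in immune-enriched DA and 1968 against 4061 in immune-enriched LEW.

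Of 3731 genes with a UMI in each of the 4 libraries, 241 (6.46%) were higher in the Gzmk cells of all 4 and 262 (7.02%) were lower, so similar shares lay on either side. No gene was tested, and of the 10 leading genes in each direction 3 and 2 led again without thinning, where DA-2 entered and immune-enriched LEW did not. No gene is therefore given as a mark of the Gzmk cells.

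Between NK cells and all other kept cells, 16 of 9562 genes (0.167%) differed in their strain difference in an edgeR fit with rat as a block. Of these, 7 were relatively higher in LEW NK cells, among them Ccl5, Cd7, Prf1 and Xcl1 (0.0732%), and 9 were relatively lower (0.0941%). Prf1 and Xcl1 are genes of the rule, so that the classes compared were defined by them, and their values are a description only. The 9 relatively lower genes were Axl, Pltp, Hmox1, Vsig4, Marco, C1qb, Aif1, Ccl6 and C1qa. Of these 9, 5 (Hmox1, Vsig4, Marco, C1qb and C1qa) are in the Kupffer and myeloid list, all 14 genes of which were tested. None of the 9 was called once members with markers of another cell or with the top 5% of UMIs were left out, when 6 genes remained, all relatively higher in LEW. The count was 4 without DA-1, all relatively higher, 1 without LEW-1 and 0 without LEW-2 (179 at an unadjusted p under 0.05).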

How the data were processed

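UMI counts per gene and barcode were those the authors deposited, made from 10x Genomics 3′ libraries with Cell Ranger 3.1.0 per the labels and a custom Rnor 6.0 rat reference per the study, without normalization. The TLH matrices held the barcodes that Cell Ranger had called as cells, before the further cell limits of the study, and the lowest barcode totals were 325 to 588 UMIs over the 6 libraries. The matrices carried no gene names, so each of the 32883 rows was named from the same row of the nuclei gene list, and repeated symbols were kept apart by identifier. Barcode sequences were not used, so barcodes shared between libraries were not counted. Nuclei and tissue sections were not analysed here.

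Cells were kept from 2000 UMIs with a mitochondrial share up to 40% in TLH, and from 1000 UMIs with a share up to 50% in the immune-enriched libraries. Library totals were 61441846 to 92484173 UMIs in TLH and 48255870 and 60005133 in the immune-enriched libraries, and NK cells held 61659, 220388, 268180 and 146967 UMIs in TLH DA-1, DA-2, LEW-1 and LEW-2. At this depth a gene that did not pass is not shown to be equal in both strains. No doublet caller was run, and doublet-like cells were left out as an alternative.

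UMIs were summed per rat and tested with edgeR 4.0.16 (R 4.3.3, quasi-likelihood test, TMM, filterByExpr, Benjamini-Hochberg at 0.05), which gave each adjusted p unless DESeq2 1.42.0 is named. Steps were tested on simulated data. Members and lists were chosen with earlier results of these data known. Named genes were the 25 with the highest lowest ratio to other cells, the 10 largest called changes in each direction with the rats apart, 10 each way for Gzmk, 5 each way between classes, and called or highest members of 18 lists. The alternatives tried were a replicate block, other size factors, DESeq2, all genes unfiltered, each rat left out, other limits on cells and members, genes left out, subtraction of the hepatocyte profile, and ratios to Ccl5. The last 2, membership without Gzma or Nkg7, the limits stated by the study with and without 2000 UMIs for LEW, and some limits of 1000 UMIs and doublet filters were added after seeing the data.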

Additional observations from a re-analysis of the deposited data

Results flagged for a closer look

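Strain differences differed between NK cells and all other kept cells for 16 genes by the edgeR interaction test. The genes with the largest relative rise in LEW NK cells were RGD1562667 (log2 7.58), Ccl1 (6.92), Slfn4 (2.56), Prf1 (2.03) and Xcl1 (2.01), and those with the largest relative fall were Axl (-10.84), Pltp (-4.54), Hmox1 (-3.48), Vsig4 (-3.31) and Marco (-3.16). Prf1 and Xcl1 helped to define the classes compared, so their values are a description. Slfn4 did not pass against CD3 cells (log2 2.06) or with at least 10 UMIs and 0.4% of UMIs of the 7 genes (1.95). In the immune-enriched pair, Ccl1 in NK cells was lower in LEW than in DA. RGD1562667 rested on 2, 1, 1 and 8 UMIs in NK cells of DA-1, DA-2, LEW-1 and LEW-2, and Ccl1 on 1, 2, 15 and 0, and Axl had 0 UMIs in LEW NK cells, so these fitted values are no bounds. Marco had 17 UMIs in the 25 NK cells of DA-1 and 3 to 7 in the NK cells of each other TLH rat.

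The NK share of kept cells moved in opposite directions in the 2 preparations, with a ratio of LEW to DA of 1.78 in TLH and 0.212 in the immune-enriched libraries. This difference was not tested, and the TLH ratio fell below 1 at 1000 UMIs and at the stated limits, but not with LEW at 2000 UMIs.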

How the results depend on the processing

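The count of 77 strain calls in NK cells was 19 with DESeq2, 43 without a filter on low counts, 46 with at least 10 UMIs and 0.4% of UMIs of the 7 genes, 47 with the limits stated by the study, 50 with LEW at 2000 UMIs in addition, and 0 with the hepatocyte profile subtracted. It ranged from 35 to 155 with 1 rat left out. The other settings gave 55 to 80. With the replicate number as a block it was 80 genes, 64 of them among the 77, but the numbers only name the rats (r = -0.08 between the DA and LEW differences of numbers 1 and 2). Gzma passed in every setting but the subtraction. Klrb1a, which never passed, turned to -0.20 with at least 10 UMIs and to -0.034 with LEW at 2000 UMIs beside the stated DA limits.

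The 16 calls between NK cells and other cells became 2 with at least 10 UMIs, 1 with CD3 cells as the comparison class, 6 with doublet-like members left out, and 0 to 13 with 1 rat left out. Ccl1 ranged from -3.70 without LEW-1 to 7.75 without LEW-2, and it passed in none of the 4, and Prf1 to -4.36 against CD3 cells. The cause was not tested.

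The DA and LEW shares of NK cells in TLH were 0.276% and 0.212% at 1000 UMIs, 1.38% and 1.10% at the limits stated by the study, and 1.38% and 1.68% with LEW at 2000 UMIs. The DA share was 0.459% with at least 10 UMIs, 1.12% with at most 20% mitochondrial UMIs, 0.717% without Gzma and 0.752% without Nkg7 in the rule, and the LEW share was 1.93% at 3000 UMIs. The immune-enriched DA share was 16.5% with at most 20% mitochondrial UMIs and 13.7% at 2000 UMIs, and that of LEW 3.76% with at most 20%. With 1 rat each, DA lay between 0.826% and 1.06% and LEW between 1.53% and 1.83%.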
